A study of Mus musculus with 2 samples.

Results

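Malat1, Neat1 and Kcnq1ot1 are long noncoding RNAs that stay in the nucleus, and they were followed here through single skeletal myofibers. They were chosen by name, as 3 of the 35163 gene rows of the count table, and all 3 had counts in every main group of cells. The myofibers came from a hind foot muscle, the flexor digitorum brevis (FDB), of 1 untreated C57BL/6J mouse older than 3 months. The study's methods speak of adult male mice of both C57BL/6J and DBA2 background, and do not say which gave these cells. A total of 763 myofibers and myofiber fragments were sorted singly into 8 plates and sequenced on 2 lanes by mcSCRB-seq, a method that counts molecules by unique molecular identifiers (UMIs). The "kept" cells are the 171 with more than 5000 detected genes and less than 20% of their counts on mitochondrial (mt-) genes. The other 592 are called excluded.

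Kept cells were placed in a fibre class by the largest of Myh1, Myh2, Myh4, Myh7 and Myh8. This gave 117 fast 2X cells (Myh1), 51 fast 2A cells (Myh2), 1 fast 2B cell (Myh4) and 2 slow cells (Myh7). By the cell type labels, 168 kept cells were whole myofibers and 3 were fragments, and of the excluded cells 502 were whole and 90 were fragments. The fragments came from muscle that had been cut before digestion, as a mock biopsy. They shared 1 row of each plate, so that fragment and plate row cannot be told apart. Whole thus means not from the mock biopsy. The paper also sorted short pieces of uncut muscle, which it describes as apparent rod-shaped fragments, many of them of low quality. The labels used here do not mark these pieces, so that cells called whole may include them. Since all cells came from 1 mouse, no test between conditions was possible, and the 95% limits given below cover counting error only. The spread over plates is given beside them.

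Kept cells held a median of 225207 nuclear-gene UMIs (range 23951 to 1438767) and excluded cells a median of 7168. All 763 cell barcodes were distinct and 0 were shared between the lanes. The 5 myofibre markers Ttn, Acta1, Ckm, Neb and Mylpf were present in the kept cells, at a summed median of 126919 CPM. Here CPM means counts per 1000000 counts of nuclear genes, with mt- genes left out, and all levels below are on this scale.

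Malat1 collects in nuclear speckles, bodies rich in splicing factors, and Neat1 is the RNA scaffold around which paraspeckles form. Both are made from neighbouring genes and, unlike most polymerase II transcripts, Malat1 and the long form of Neat1 end in a triple helix of U-rich and A-rich stretches and carry no poly(A) tail. Kcnq1ot1 is transcribed antisense to Kcnq1 from the paternal chromosome, and it silences imprinted genes around it. A myofiber holds many nuclei in 1 cytoplasm, so that its level of a nuclear RNA is a sum over nuclei. The mcSCRB-seq primers anneal to runs of A, which a poly(A) tail or a stretch within a transcript can offer.

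In the GRCm38 annotation (GENCODE) Malat1 (ENSMUSG00000092341.3) lies on the minus strand at chr19:5795690-5802672, with a single-exon transcript of 6983 bases. Neat1 (ENSMUSG00000092274.3) lies 22035 bases from it, at chr19:5824708-5845478 on the same strand. Its long transcript has 20771 bases and its short transcript 3004 bases. Both are counted under the same gene, and gene counts cannot separate them. The following stretches, read from GENCODE transcripts and written 5′ to 3′, show what Malat1 and Neat1 share at or near their annotated ends. Capitals mark TTTTGCTTTT and AAAAGCAAAA in the first and second sequences, and the polyadenylation signal AATAAA in the third, which is the end of short Neat1. The positions are chr19:5795972-5796037, chr19:5824708-5824770 and chr19:5842307-5842356, all on the minus strand.
Malat1: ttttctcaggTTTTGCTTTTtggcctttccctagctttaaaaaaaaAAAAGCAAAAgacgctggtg
Neat1 long: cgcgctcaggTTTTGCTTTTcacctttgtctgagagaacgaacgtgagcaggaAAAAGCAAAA
Neat1 short: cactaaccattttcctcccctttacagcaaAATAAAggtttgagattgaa

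The second motif is the last 10 bases of long Neat1 and the first is its reverse complement, so that Neat1 holds the second by choice. The motifs are 26 bases apart in Malat1 and 33 bases apart in Neat1. On the transcript strand, TTTTGCTTTT was found in 0.808% and AAAAGCAAAA in 0.771% of 13612 annotated lincRNA and antisense transcripts. The first followed by the second within 100 bases was found in 2 of these transcripts, which belong to Malat1 and Neat1. The annotated Malat1 transcript runs on for 292 bases after the second motif, and the long Neat1 transcript for 0. AATAAA is followed by 14 bases in the short Neat1 transcript. The longest run of A was 12 bases in Malat1 and 7 bases in long Neat1. Of 114 such transcripts with at least 5000 bases, 31.6% held a run of 12 or more and 37.7% held none of 8.

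Kcnq1ot1 (ENSMUSG00000101609.2) lies at chr7:143203458-143296549 on the minus strand, as a single exon of 93092 bases inside Kcnq1 (chr7:143106362-143427042, plus strand). Only 1 Kcnq1 exon, of 121 bases at chr7:143261256-143261376, overlaps it, while the rest of its length faces Kcnq1 introns. The authors' counting was run at default settings, and whether these used strand is not given in the sources used here. Reads from Kcnq1 introns may therefore be counted with Kcnq1ot1. Kcnq1ot1 holds 10 separate runs of 10 or more A, and the longest, of 41 bases, is shown in capitals from chr7:143226930-143227000 (minus strand).
Kcnq1ot1: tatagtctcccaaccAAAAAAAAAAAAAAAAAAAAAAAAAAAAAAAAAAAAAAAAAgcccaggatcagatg

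Malat1 was the 41st most abundant nuclear-encoded gene of the kept cells, Neat1 the 94th and Kcnq1ot1 the 3017th. Among 6932 lncRNA genes they ranked 2, 4 and 87. Summed over the 171 kept cells, Malat1 had 111386 counts, a level of 2282 CPM (limits 2269 to 2295). Neat1 had 47406 counts, a level of 971 CPM (limits 962 to 980). Kcnq1ot1 had 2277 counts, a level of 46.6 CPM (limits 44.8 to 48.6). Fewer nuclei and less of the RNA per nucleus cannot be told apart in such sums.

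Per transcript length, the level of Malat1 was 327 CPM per kilobase and that of Kcnq1ot1 was 0.501 CPM per kilobase. Neat1 stood at 46.8 CPM per kilobase over its long form and at 323 CPM per kilobase over its short form. Where Neat1 stood against Malat1 per length thus depended on the form taken, since its lower value is far from that of Malat1 and its upper value is close to it. A UMI method counts molecules from the primed site, so these values describe the scale and not the number of transcripts.

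Every kept cell had Malat1 and Neat1. Malat1 ran from 139 CPM (20 UMIs) through a median of 1821 to 9135 CPM (329 UMIs), and both the lowest and the highest cell were fast 2X. Neat1 ran from 289 CPM through a median of 913 to 3551 CPM. Its coefficient of variation over cells, 0.424, lay below the lower quartile of 0.525 among 4130 well-detected genes. That of Malat1 was 0.575, between the lower quartile and the median of 0.664. Those genes needed only a mean of 5 UMIs per kept cell. They were not matched to Malat1 and Neat1 for abundance, so that counting noise weighs more on many of them.

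Kcnq1ot1 was at 0 in 18 of the 171 kept cells, had a median of 34.6 CPM and reached 259 CPM in a fast 2A cell. Its coefficient of variation of 0.878 lay above the upper quartile of 0.809, at a median of 7 UMIs per cell, so that counting noise weighs more on it than on the other two.

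**Figure D1:**
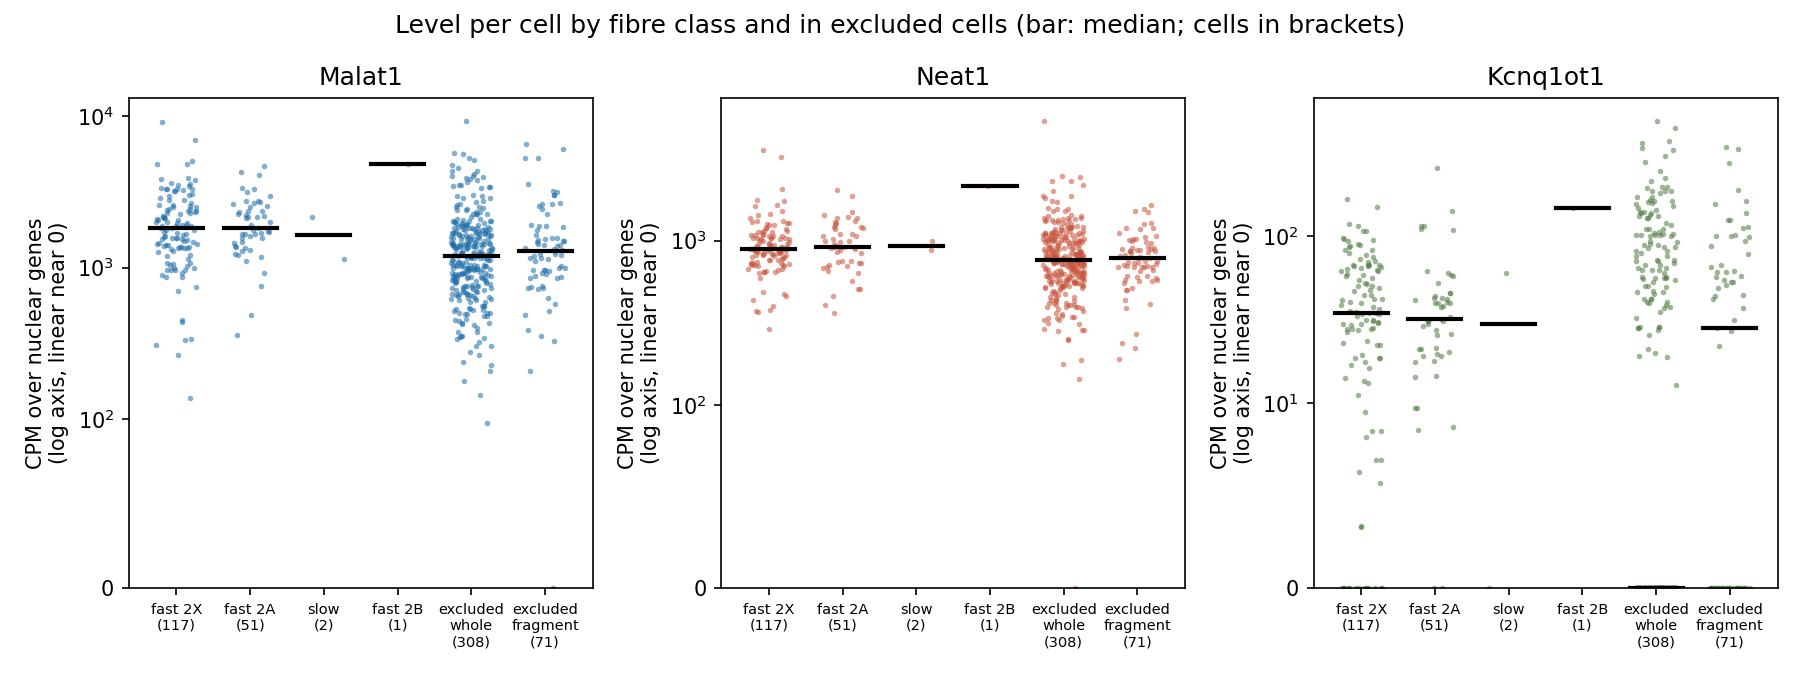
Each point is a cell, placed by group (x axis, number of cells in brackets) and by CPM over nuclear genes (y axis, logarithmic above and linear near 0), and black bars are medians. Excluded cells with fewer than 5000 nuclear UMIs are not drawn; fast 2X and fast 2A cells overlap over most of their range for all 3 RNAs, with Malat1 medians of 1818 and 1821 CPM.

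The first comparison asked whether the RNAs differ between the 2 fast classes that hold most kept cells. They hardly did. Malat1 in fast 2X cells ran from 139 through 1818 to 9135 CPM, and in fast 2A cells from 359 through 1821 to 4665 CPM. Neat1 ran from 289 through 889 to 3551 CPM in fast 2X and from 363 through 920 to 2021 CPM in fast 2A cells. The classes overlapped almost fully for both RNAs. The widest values at either end were fast 2X cells, of which there were more.

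From the summed counts, the log2 ratio of fast 2A over fast 2X was -0.02 for Malat1 (limits -0.04 to -0.0035) and -0.01 for Neat1 (limits -0.04 to 0.02). Within the 7 plates that held at least 3 cells of each class it ran from -0.41 to 0.64 for Malat1 and from -0.24 to 0.31 for Neat1, above 0 on 4 plates for each. The plates therefore spread far more widely than the counting limits, and the ratio over all cells lay within their spread.

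Kcnq1ot1 stood at 47.7 CPM in the 2X and 40.8 CPM in the 2A class, and its log2 ratio was -0.22 (limits -0.37 to -0.07). Its counting limits left out 0, but its plate values ran from -0.59 to 0.52 and were below 0 on 5 of 7 plates. On lane 2 alone the ratio was -0.61 and on lane 1 alone it was 0.05, so that the lower level in fast 2A cells came from the cells of lane 2. A UMI of Kcnq1ot1 was found in 87.2% of fast 2X and in 96.1% of fast 2A cells. With each cell thinned to 5000 nuclear UMIs the shares were 21.4% (exact binomial limits 14.3 to 29.9) and 29.4% (limits 17.5 to 43.8), which overlap.

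None of the 3 RNAs was past 1.5-fold between the fast classes. Of 15672 genes with at least 100 counts in the 2 classes together, 4.58% were past 1.5-fold higher in fast 2A and 12.7% past 1.5-fold lower. The median log2 ratio of these genes was -0.09, and a TMM scaling factor of -0.08 was of like size. Relative to that factor Malat1 stood at 0.05 and Neat1 at 0.07.

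**Figure D2:**
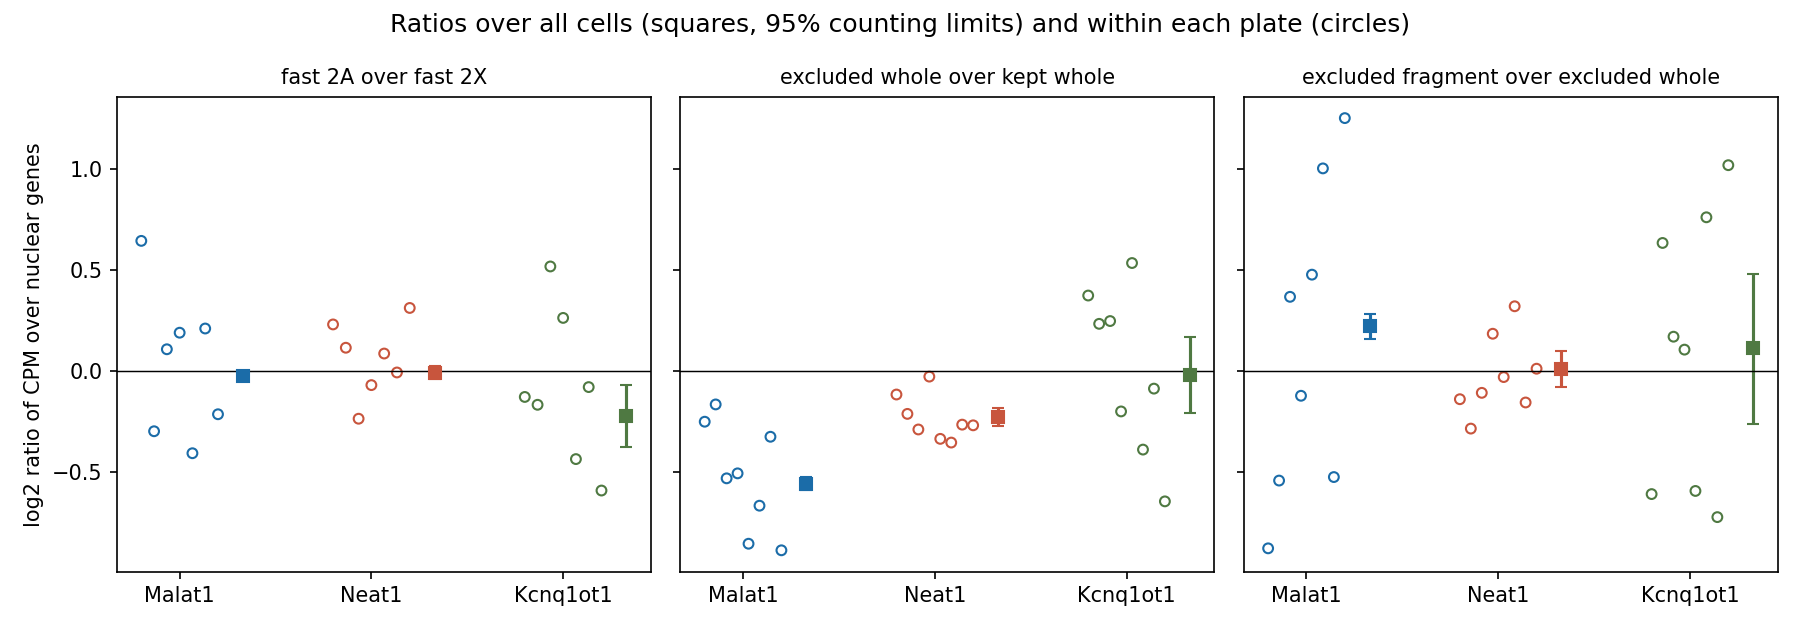
Log2 ratios of CPM (y axis) for the 3 RNAs (x axis) in the 3 comparisons; squares with bars are sums over all cells with 95% counting limits and circles are single plates. Malat1 and Neat1 are below 0 on 8 of 8 plates in excluded against kept whole myofibers, while the plates fall on both sides of 0 in the other comparisons.

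The genes that work with these RNAs were described from lists of speckle and paraspeckle proteins. Of 18 speckle genes 0 were past 1.5-fold between fast 2A and fast 2X, beside 4.58% higher and 12.7% lower of all tested genes. Their median log2 ratio was 0.10 against -0.09 for all tested genes. The largest ratio was that of Rbm25, a splicing regulator, which had 205 CPM in the 2A and 146 CPM in the 2X class (log2 ratio 0.49, above 0 on 7 of 7 plates). Srrm2, which builds the core of the speckle together with Son, stood at 346 and 332 CPM, and Son at 165 and 153 CPM.

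Of 15 paraspeckle genes 0 were past 1.5-fold, beside the same shares of all tested genes, with a median log2 ratio of 0.08. Sfpq, needed for paraspeckles to form, stood at 71.2 CPM in the 2A and 65.6 CPM in the 2X class. Its partner Nono stood at 10.0 and 11.4 CPM. Pspc1, the third member of their family, had the lowest log2 ratio of the list, -0.53, with plates from -2.37 to 0.22, and Ewsr1 the highest, 0.48, above 0 on 7 of 7 plates. Smarca4, a chromatin remodeller found in paraspeckles, stood at 105 and 117 CPM.

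Beside 4.58% higher and 12.7% lower of all tested genes, 1 of the 10 other listed nuclear lncRNAs with enough counts was past 1.5-fold. This was Meg3, an imprinted lncRNA of the Dlk1 region, at 21.5 CPM in the 2A and 12.6 CPM in the 2X class. The log2 ratio was 0.77 (limits 0.54 to 1.00) and above 0 on 6 of 7 plates, with a lowest plate of -1.79. Airn, which silences the Igf2r region much as Kcnq1ot1 silences its own, stood at 128 and 112 CPM. Among 8 lncRNAs of the cytoplasm or that host small nucleolar RNAs, H19 alone was past 1.5-fold, beside the same shares of all genes. It stood at 446 CPM in the 2A and 162 CPM in the 2X class, a log2 ratio of 1.46. Over plates this imprinted lncRNA ran from 0.83 to 1.76 and was above 0 on 7 of 7, where Kcnq1ot1, also imprinted, was above 0 on 2 of 7.

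Genes around Kcnq1ot1 were read next. Of 8 such genes with enough counts, 1 was past 1.5-fold between the fast classes, on the lower side, which is near the 12.7% of all tested genes that were lower. Cdkn1c, which encodes an inhibitor of the cell cycle and is silenced in cis by Kcnq1ot1 in many tissues, had 3.73 CPM in the 2A and 14.1 CPM in the 2X class. Its log2 ratio came to -1.92 (limits -2.41 to -1.46), below 0 on 7 of 7 plates. Kcnq1 itself, a potassium channel gene, stood at 14.4 and 15.5 CPM. Of the 7 tested genes next to Malat1 and Neat1 on chromosome 19, 0 were past 1.5-fold, and their log2 ratios ran from -0.24 to 0.42.

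Malat1 and Neat1 can be compared within a cell with no denominator. Kept cells had 2.35 Malat1 UMIs for each Neat1 UMI (limits 2.32 to 2.38). The ratio was 2.36 in fast 2X and 2.34 in fast 2A cells, with overlapping limits. Malat1 was the higher of the pair in 157 of 171 kept cells, with cell values from 0.252 through a median of 1.87 to 7.79. Plates ran from 1.76 to 2.82, which is wider than the distance between the classes.

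The single fast 2B cell was high in all 3 RNAs. It had 4780 CPM of Malat1, 2159 CPM of Neat1 and 148 CPM of Kcnq1ot1, and it ranked 6, 3 and 4 among the 171 kept cells. Its Malat1 to Neat1 ratio, 2.21 (limits 2.00 to 2.46), was near that of the other classes. This cell also had 2592 CPM over 21 markers of non-muscle cells, of which 1879 CPM were fibroblast markers, against a median of 108 CPM in kept cells, and its myofibre markers summed to 39794 CPM. The part of other cells in its levels was not tested.

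The slow cells did not stand apart from the fast classes. They had 2156 and 1136 CPM of Malat1 and 993 and 872 CPM of Neat1. The first had 59.96 CPM of Kcnq1ot1 (27 UMIs), while the second had 0 of 87167 UMIs, which allows up to 42.3 CPM (exact 95% upper limit). With 1 and 2 cells, these classes allow no comparison with a spread.

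The 3 kept fragments lay within the range of the whole cells for Malat1, at 1569, 2059 and 1770 CPM, and for Neat1, at 1043, 633 and 915 CPM. For Kcnq1ot1 they had 116, 149 and 118 CPM, from 11, 16 and 4 UMIs, and ranked 7, 3 and 6 of 171. The highest 7 kept cells for Kcnq1ot1 thus included all 3 fragments and the fast 2B cell. The fragments' non-muscle markers ran from 147 to 2217 CPM and their mt- share from 13.7 to 19.9%.

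Plates and depth moved the levels more than fibre class did. Over the 8 plates the level in kept cells ran from 1510 to 2663 CPM for Malat1, from 858 to 1131 CPM for Neat1 and from 37.1 to 56.0 CPM for Kcnq1ot1. Neat1 varied least, by 1.32-fold, against 1.76-fold for Malat1. The lanes gave 2253 and 2308 CPM of Malat1.

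With kept cells in 4 groups by nuclear UMIs, from the shallowest, Malat1 stood at 1857, 1856, 2240 and 2438 CPM. Neat1 stood at 1025, 964, 940 and 981 CPM, with no such order. Kcnq1ot1 stood at 36.8, 41.7, 42.8 and 50.4 CPM. Over all kept cells, those with more nuclear-gene UMIs counted thus had a larger share of Malat1 and Kcnq1ot1 among them, and Neat1 kept its share. Depth of capture and sequencing and the RNA content of a cell were not separated here. Across the 171 cells the Spearman correlation with nuclear UMIs was 0.39 for Malat1, 0.05 for Neat1 and 0.27 for Kcnq1ot1. That of Malat1 was 0.39 in fast 2X and 0.37 in fast 2A cells, and 0.31 on lane 1 and 0.48 on lane 2. That of Kcnq1ot1 was 0.33 in fast 2X but 0.01 in fast 2A cells, and 0.10 on lane 1 but 0.49 on lane 2. These are descriptions over cells of 1 mouse whose depth enters both measures.

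**Figure D3:**
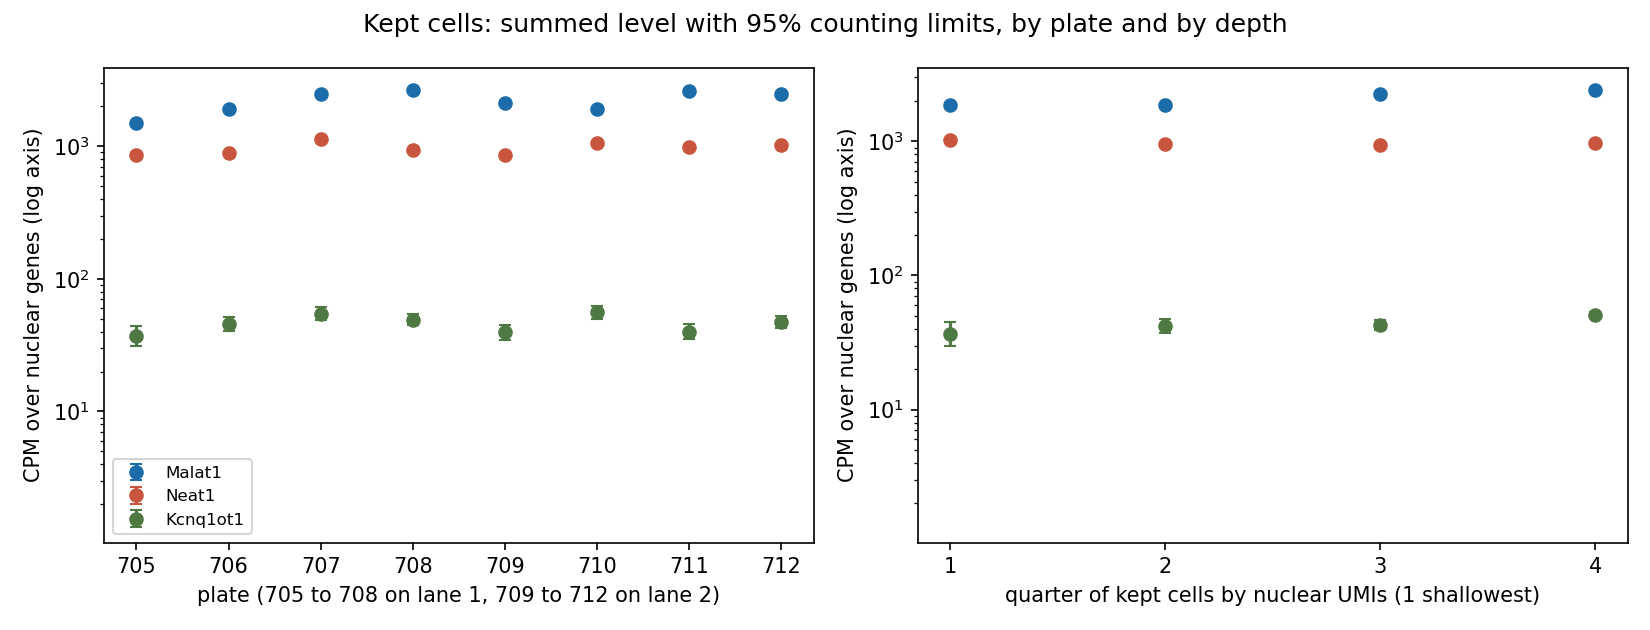
CPM over nuclear genes (y axis, logarithmic) of the 3 RNAs in kept cells, by plate on the left and in 4 equal groups of cells ranked by nuclear UMIs on the right; bars are 95% counting limits, smaller than most points. Malat1 rises from 1857 CPM in the shallowest to 2438 CPM in the deepest group, while Neat1 stays between 940 and 1025 CPM.

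The RNAs varied together only in part. Over the 171 kept cells the Spearman correlation of CPM was 0.35 between Malat1 and Neat1, 0.39 between Malat1 and Kcnq1ot1 and 0.06 between Neat1 and Kcnq1ot1. With cells thinned to 23951 nuclear UMIs, the depth of the shallowest kept cell, they were 0.37, 0.23 and 0.13. Whether Malat1 was closer to its neighbour Neat1 or to the unlinked Kcnq1ot1 depended on the thinning and on the lane. Without thinning, its correlations with Neat1 and Kcnq1ot1 were 0.42 and 0.34 on lane 1, and 0.27 and 0.49 on lane 2. They were 0.39 and 0.44 in fast 2X cells and weaker, 0.19 and 0.19, in fast 2A cells. Cells share library, depth and a denominator, and these values are descriptions.

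The genes most like each RNA were taken among 4130 well-detected nuclear genes, by Spearman correlation of CPM over the kept cells. For Malat1 they were Dmd, which encodes dystrophin (0.69, and 0.76 and 0.62 in the lanes), Msi2, an RNA-binding protein gene (0.58), Agbl1 (0.58), Rock2, a kinase gene (0.58), and Fgf13 (0.57). After thinning, Dmd stood at 0.64 and Rock2 at 0.36. At the other end stood Acta1, skeletal actin (-0.57), Slc25a4, the muscle adenine nucleotide carrier (-0.51), and Aldoa, a glycolytic aldolase (-0.49).

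The gene span of these genes was looked at after their names had been seen. The 100 genes most like Malat1 had a median span of 178378 bases, against 34851 bases for all genes compared and 7554 bases for the 100 least like it. Dmd spans 2257272 bases. For Kcnq1ot1 the medians were 198652 bases for the most and 9216 bases for the least alike genes. For Neat1 they were 62432 and 4921 bases. Across genes, the correlation with Malat1 over cells and the gene span had a Spearman correlation of 0.59, against 0.56 for Kcnq1ot1 and 0.30 for Neat1. Genes are not independent replicates, and what lies behind this order was not tested.

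For Neat1 the most alike genes included Card14 (0.51), Klf9, a glucocorticoid-responsive transcription factor gene (0.48), Anxa11, an annexin gene (0.45), and Mat2a, which makes S-adenosylmethionine (0.45). For Kcnq1ot1 they included Nfkb1 (0.45), Malat1 (0.39), Ddx23, a splicing helicase gene (0.39), and Plekha5 (0.39). After thinning, these values of Kcnq1ot1 fell to between 0.07 and 0.24, and those of Neat1 to between 0.24 and 0.38.

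The second comparison asked how the RNAs stood in the 502 cells labelled whole myofibers that failed the filters. Malat1 took a smaller share of nuclear-gene counts there. It ran in kept whole cells from 139 through 1826 to 9135 CPM, and in excluded whole cells from 0 through 1087 to 50000 CPM, the last being 1 UMI among 20. Summed, it stood at 2284 CPM in kept and 1551 CPM in excluded whole cells. The cells overlapped widely. The log2 ratio of excluded over kept was -0.56 (limits -0.59 to -0.53), and it was below 0 on 8 of 8 plates, from -0.89 to -0.17.

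Neat1 stood at 972 CPM in kept and 830 CPM in excluded whole cells, a log2 ratio of -0.23 (limits -0.27 to -0.19), below 0 on 8 of 8 plates, from -0.36 to -0.03. Kcnq1ot1 stood at 46.2 and 45.6 CPM, a log2 ratio of -0.02 (limits -0.21 to 0.17), with 4 plates on either side of 0. The order of the change, Malat1 before Neat1 before Kcnq1ot1, was read from summed counts and was not tested.

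All 3 log2 ratios lay within 1.5-fold. Of 16776 tested genes, 42.5% were past 1.5-fold higher in excluded cells and 12.9% past 1.5-fold lower. The median tested gene was at 0.34 and the TMM factor at 0.62. Relative to that factor the log2 ratios were -1.18 for Malat1, -0.85 for Neat1 and -0.64 for Kcnq1ot1, all past 1.5-fold lower. Whether the RNAs count as past 1.5-fold lower thus turned on the scaling. Malat1 and Neat1 were lower under both scales, and Kcnq1ot1 was lower by more than its counting limits only under the second.

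Spike-in RNA, added to each well, gave a scale outside the myofibers. Per 1000 spike-in UMIs, kept whole cells had 2614 Malat1 UMIs and excluded whole cells 172. This was 15.2-fold more in kept cells for Malat1 (8.22 to 27.3 over plates), 12.1-fold for Neat1 and 10.5-fold for Kcnq1ot1, beside 10.3-fold for all nuclear-gene UMIs. The spike-in cancels between Malat1 and all nuclear-gene UMIs, so that the gap between these folds restates the CPM ratio. All 3 RNAs were scarcer per spike-in UMI in excluded cells, by a wide margin. The filters on detected genes and mt- share themselves favour excluded cells with few nuclear-gene UMIs, so that this direction is not a separate result.

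The filters that a cell failed went with different levels, here over all 592 excluded cells, the 90 fragments included. Malat1 stood at 1868 CPM in the 111 cells with too many mt- counts only, at 1779 CPM in the 107 with too few genes only and at 1209 CPM in the 374 that failed both. Neat1 stood at 813, 1125 and 815 CPM in the same order. The Malat1 to Neat1 ratio was 2.30 (limits 2.21 to 2.39) with too many mt- counts only, close to the kept cells, and 1.58 (limits 1.41 to 1.78) and 1.48 (limits 1.41 to 1.56) in the cells with few genes. Over all excluded whole cells it was 1.87, and on 7 of 8 plates it was lower than in the kept cells of the plate. In the 4 groups of kept cells by nuclear UMIs, from the shallowest, the ratio was 1.81, 1.93, 2.38 and 2.48. The part of depth in the ratio was not tested.

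**Figure D4:**
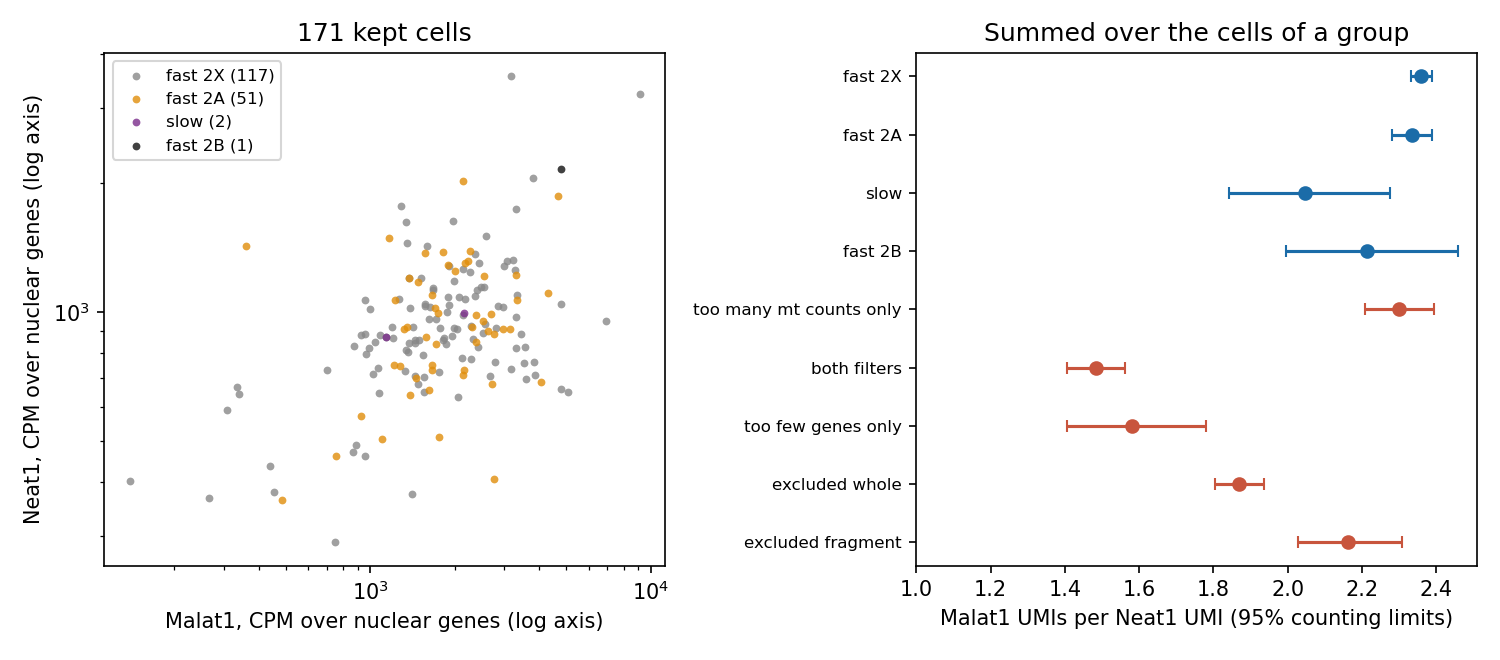
On the left each point is a kept cell by its Malat1 and Neat1 level (CPM over nuclear genes, both axes logarithmic) and coloured by class; on the right are Malat1 UMIs per Neat1 UMI for groups of cells with 95% counting limits. The ratio is 2.36 and 2.34 in the fast classes, 2.30 with too many mt- counts only, and 1.48 in cells that failed both filters.

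At few counts the RNAs were often missed. A UMI of Malat1 was found in 91.4% of excluded whole cells, of Neat1 in 88.4% and of Kcnq1ot1 in 26.3%, against 100%, 100% and 89.5% of all kept cells. With cells thinned to 5000 nuclear UMIs, which leaves out 194 of the 502 excluded whole cells, the shares were 98.7%, 99.4% and 18.8%. In kept cells they were 98.8%, 97.1% and 24.6%, with overlapping limits for each RNA. Nearly every cell had Malat1 and Neat1 at this depth, so that their shares could hardly differ. The mean number of Malat1 UMIs was 10.0 in kept and 7.36 in excluded whole cells.

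Markers of other cell types also took a larger share of nuclear-gene counts in excluded cells. These values are shares and not amounts per well. All 21 non-muscle markers had counts in both groups, and their summed level was 160 CPM in kept whole cells (cells from 0 through 107 to 8612) and 1020 CPM in excluded whole cells (from 0 through 301 to 17857). Of 20 with enough counts 18 were past 1.5-fold higher, beside 42.5% of all tested genes, among them the endothelial gene Pecam1 at 134 against 26.0 CPM and the pericyte gene Rgs5 at 312 against 12.5 CPM. The 5 myofibre markers had log2 ratios from -0.85 to -0.33. In the cells with too many mt- counts only, where the Malat1 to Neat1 ratio was near that of kept cells, the non-muscle sum was the highest of the filter groups, 1263 CPM. The part of these cells, and of depth and mt- share, in the lower Malat1 level was not tested.

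Kcnq1ot1 and Kcnq1 parted in the excluded cells. Kcnq1 stood at 14.99 CPM in kept and 40.8 CPM in excluded whole cells, a log2 ratio of 1.44 (limits 1.23 to 1.66), above 0 on 8 of 8 plates, while Kcnq1ot1 kept its level. There were 3.09 Kcnq1ot1 UMIs for each Kcnq1 UMI in kept whole cells (limits 2.84 to 3.36) and 1.12 in excluded whole cells (limits 0.935 to 1.34), and the ratio was higher in kept cells on 8 of 8 plates. In the 4 groups of kept cells by nuclear UMIs, from the shallowest, the ratio was 1.49 (limits 1.07 to 2.09), 2.60, 3.76 and 3.16. The limits of the shallowest group overlapped those of excluded whole cells. Reads from the 2 strands may be mixed, as above, and non-muscle markers took a larger share of counts in the same excluded cells. The part of depth, of mixed strands and of other cells in the ratio was not tested.

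Of the 8 tested genes around Kcnq1ot1, 3 were past 1.5-fold higher in excluded cells, beside 42.5% of all tested genes. These were Slc22a18, a transporter gene (1.96), Kcnq1 (1.44) and Cdkn1c (1.29, above 0 on 7 of 8 plates). Nap1l4, a histone chaperone gene of the same region, had a log2 ratio of -0.43. Around Malat1 and Neat1, Slc25a45, a carrier gene, was past 1.5-fold higher (1.54, from 29 and 84 counts) and Capn1, calpain, past 1.5-fold lower (-0.60), of 8 tested.

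Speckle genes had a median log2 ratio of -0.04 in excluded over kept whole cells and paraspeckle genes one of 0.05, against 0.34 for all tested genes. Beside the 42.5% of all tested genes that were past 1.5-fold higher, 1 of 18 speckle genes was, Srsf2, a splicing factor gene, with 27.9% of its excluded-cell counts in 1 cell and a log2 ratio of 0.26 without the richest cell of each group. Son stood at -0.39. Of 15 paraspeckle genes Pspc1 (0.82, plates -1.74 to 1.596) and Nudt21 (0.68, or 0.55 without the richest cells) were past 1.5-fold higher, and Sfpq stood at 0.30.

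Other lncRNAs lay on both sides of 0. Of 10 tested nuclear lncRNAs 4 were past 1.5-fold higher in excluded cells and 0 lower, about the share of all genes. Rian, of the Dlk1 region like Meg3, had a log2 ratio of 1.52. Tug1 had 1.34, Pvt1 had 1.15 and Meg3 had 1.11, the last 3 above 0 on 8 of 8 plates. Airn, at 0.08, was near 0 as Kcnq1ot1 was. Of 8 lncRNAs of the cytoplasm or that host small nucleolar RNAs, 3 were past 1.5-fold lower, beside 12.9% of all genes. 2900097C17Rik had a log2 ratio of -1.83, below 0 on 8 of 8 plates, and Snhg8 one of -0.75, below 0 on 7 of 8. Snhg6 had one of -1.25 (limits -2.18 to -0.45), from 13 counts in excluded cells. Snhg1 was higher at 0.74, with plates from -1.14 to 2.76.

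**Figure D5:**
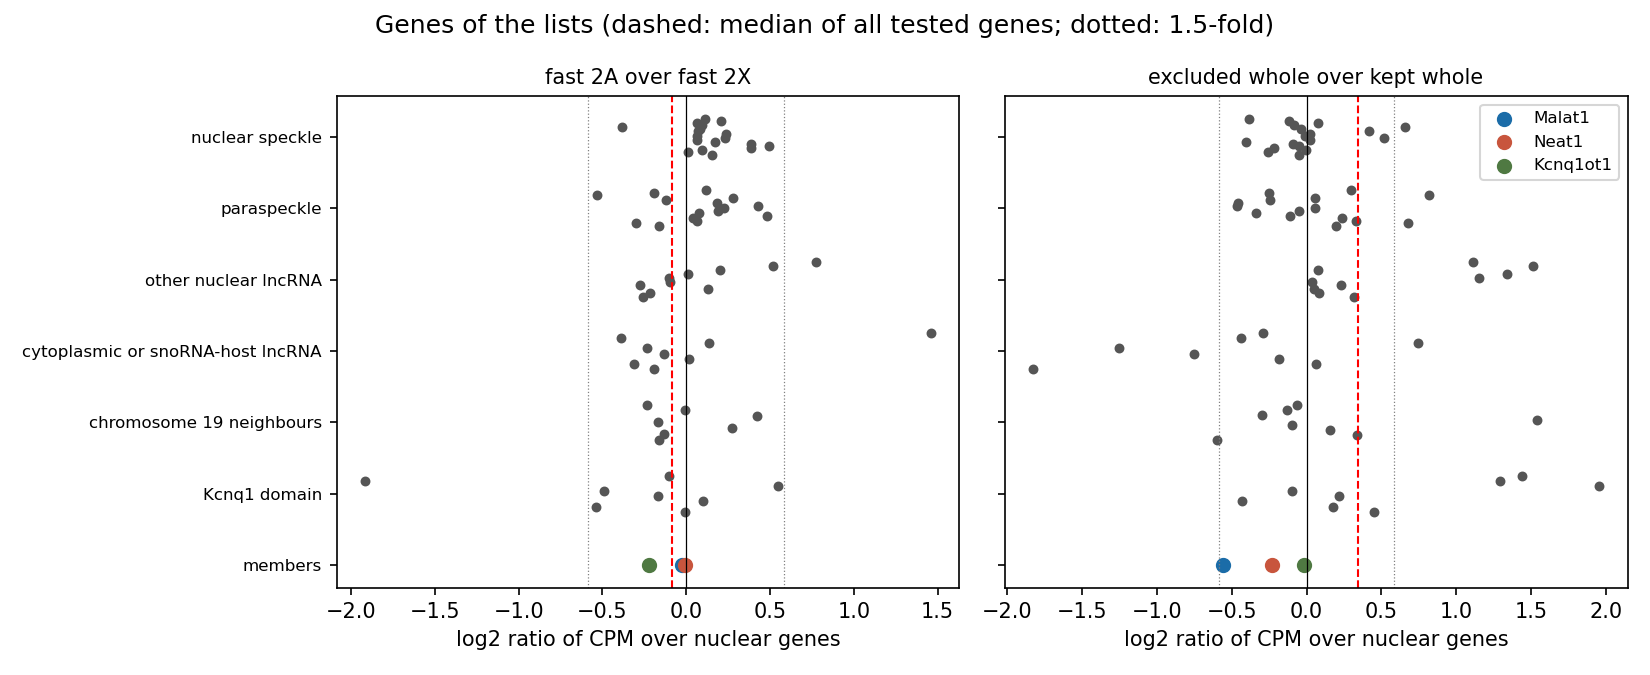
Log2 ratios of CPM (x axis) for every tested gene of the lists (y axis), fast 2A over fast 2X on the left and excluded over kept whole myofibers on the right; the dashed line is the median of all tested genes and dotted lines mark 1.5-fold. In the left panel speckle and paraspeckle genes stay within 1.5-fold, and in the right panel all 3 RNAs lie to the left of the median of 0.34.

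The third comparison asked whether mock-biopsy fragments differed from cells labelled whole myofibers among the excluded cells. Malat1 ran in the 90 excluded fragments from 0 through 1144 to 6483 CPM and stood at 1807 CPM summed, against 1551 CPM in excluded whole cells. The log2 ratio was 0.22 (limits 0.16 to 0.28), but single plates ran from -0.88 to 1.25, with 4 on either side of 0. It was -0.24 on lane 1 and 0.59 on lane 2. Neat1 stood at 835 and 830 CPM, with plates from -0.29 to 0.32, and Kcnq1ot1 at 49.4 and 45.6 CPM, from 81 and 263 counts.

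None of the 3 RNAs was past 1.5-fold in this comparison. Of 9287 tested genes 4.05% were past 1.5-fold higher in fragments and 12.8% lower. Neat1 was the steadiest of the 3 over plates here too. The Malat1 to Neat1 ratio in excluded fragments was 2.16 (limits 2.03 to 2.31), above the 1.87 of excluded whole cells. Fragments held a median of 12160 nuclear UMIs and whole excluded cells 6723, and their non-muscle markers summed to 840 and 1020 CPM. Of 16 speckle genes Clk4 and Luc7l3 were past 1.5-fold lower in fragments, of 13 paraspeckle genes Cpsf6 and Taf15, and of 6 genes around Kcnq1ot1 Osbpl5 (10 counts). Of 9 nuclear lncRNAs, 3 cytoplasmic or host lncRNAs and 6 neighbours on chromosome 19, 0 were past 1.5-fold.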

How the data were processed

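The authors sequenced mcSCRB-seq libraries of single myofibers and deposited 1 table of 763 cells with 10 rows of cell descriptions above the gene rows. Per the labels, reads were aligned with STAR 2.5.4b to GRCm38 (mm10) and counted with featureCounts. The labels also name Cell Ranger 3.1.0, which the study's methods do not. Those methods place STAR and featureCounts within zUMIs, run at its defaults, and add ERCC spike-ins to the reference. What these defaults do with introns and strand is not given in the sources used here. The deposited values of the gene rows are raw UMI counts, other rows of the same columns being percentages, so that no count model was run; a median of 2.74% of a cell's UMIs lay outside the gene rows, and 38 cells had no spike-in UMI. The 27 mt- genes were left out of the denominator, and 35136 genes were used.

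Gene counts of all cells in a group were added up in Python 3.11.15 with numpy 2.4.6, scipy 1.17.1 and pandas 2.3.3. Limits are exact Poisson for levels, exact conditional binomial for ratios and Clopper-Pearson for shares, at 95%. UMIs limit amplification bias, but cells of 1 mouse are not replicates and no p-value is given. Plates were compared where each group had at least 3 cells. Genes with at least 100 counts in the groups together were tested, and a TMM factor was computed from the summed counts with the published formula. The steps were tested on simulated data.

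The RNAs and lists were chosen with earlier results of these data known. Named were the 3 RNAs, in each list up to 5 genes with those past 1.5-fold first, and for each RNA the 5 genes most alike with a mean of at least 5 UMIs and a UMI in at least 90% of kept cells; further genes named at the ends of the ranges were chosen after their values were seen. Of the most alike genes, 1 for Neat1 and 1 for Kcnq1ot1 are not reported here. The listed genes Rbm14, Tsix, Oip5os1 and Cdh15 were not analysed here.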

Additional observations from a re-analysis of the deposited data

How the results depend on the processing

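Of 117 recomputed levels, ratios, shares and counts of genes, 84 stayed close to the value reported, within 1 SD over plates for levels and ratios, within the counting limits for shares and within 1.5-fold for counts of genes. All levels in kept cells were among them. Leaving out a lane moved the Kcnq1ot1 log2 ratio of fast 2A over fast 2X between -0.61 (lane 2 only) and 0.049 (lane 1 only), from -0.22. With mt- genes in the denominator the log2 ratios of excluded over kept whole cells were -1.56 for Malat1, -1.23 for Neat1 and -1.02 for Kcnq1ot1, and relative to the TMM factor they were -1.18, -0.85 and -0.64. As a mean over cells the Neat1 log2 ratio of fragments over excluded whole cells was -0.25. With at least 500 counts, fewer genes were tested, and genes past 1.5-fold higher and lower were 252 and 540 in fast 2A, 2526 and 1373 in excluded and 26 and 122 in fragments. With no minimum they were 4185 and 5834, 15076 and 3483, and 4201 and 5279. Past 2-fold, 203 were higher and 635 lower in fast 2A, 953 lower in excluded cells, and 62 higher and 352 lower in fragments. With at least 2 UMIs at the thinned depth, the shares were 95.3, 92.4 and 5.26% of kept cells for Malat1, Neat1 and Kcnq1ot1, 93.5, 90.6 and 2.60% of excluded whole cells, and 88.7 and 4.23% of excluded fragments for Neat1 and Kcnq1ot1. Leaving out the richest cell of each group, was added after the data were seen for the named genes of the lists and turned no direction among them; of the 3 RNAs, Neat1 in fragments over excluded whole cells went from 0.0098 to -0.0061. No paired analysis was possible because the lanes hold different cells of 1 mouse and the comparisons are not between the lanes. Sampling depth limits Kcnq1ot1 most, at a median of 7 UMIs per kept cell and 0 per excluded cell.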
